A study of Sus scrofa with 14 samples.

Results

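The subject of the report is a set of 7 antioxidant enzyme genes in pig small intestine: the glutathione peroxidase genes GPX1, GPX2, GPX3 and GPX4, the superoxide dismutase genes SOD1 and SOD2, and the catalase gene CAT. A probe was taken for a member when its RefSeq accession belonged to that gene. This gave 25 of the 43603 probes of the array, 9 for CAT, 6 for GPX1, 4 for GPX3, 3 for GPX4, 2 for SOD1 and 1 for GPX2. SOD2 had 0 probes named in this way and was not analysed here, so 6 of the 7 genes are described. They belong to 3020 genes that could be named in all.

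RNA came from mucosal scrapings of jejunum segments of anaesthetised male piglets, 5 weeks old, in the small intestinal segment perfusion (SISP) model. In this model, adjacent loops of 1 animal keep their blood supply and nerves and are perfused side by side. Loops were perfused for 6 h with in vitro digested yellow onion (YOd), digested white onion (WOd) or a digest in which salt solution replaced the onion (saline digest, Sd). Pigs 1, 2 and 4 gave a YOd and an Sd segment and pigs 5, 6, 7 and 8 a WOd and an Sd segment, so the groups were 3 YOd, 4 WOd and 7 Sd arrays, 1 array per segment. The digests contained pepsin, pancreatin and bile salts in all groups, but onion digests were diluted in peptone and Sd in a saline solution with casamino acids and glucose, and to another degree. Onion and diluent therefore cannot be told apart. The yellow and the white onion were given to different pigs. A scraping holds several cell types, and fewer cells of a type and less RNA per cell cannot be told apart in it.

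Superoxide dismutases turn superoxide into hydrogen peroxide, SOD1 in the cytosol with copper and zinc and SOD2 in mitochondria with manganese. Hydrogen peroxide is then removed by catalase, mostly in peroxisomes, and by glutathione peroxidases, which use glutathione and carry selenium in the active site. GPX1 is the widespread cytosolic form, GPX2 the form typical of gastrointestinal epithelium, GPX3 is secreted and found in plasma, and GPX4 reduces lipid hydroperoxides in membranes. Onion is rich in quercetin and sulphur compounds, and the comparison with Sd asks whether the mucosal genes respond to its digest.

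Signals were divided by the 75th percentile of their array and are given as log2 levels, so that 0 is the signal of that percentile. Levels of different probes are not comparable, and each gene is compared with itself. The median signal of an array was 38.7 to 83.1 over a local background of 19 to 21, and the number of arrays limits the precision. Pigs 2 and 7 stood apart. Their Sd arrays lay on another slide than their onion arrays and were scanned in a second session. Of 254 probes that differed more than 16-fold between Sd arrays, 0.394% were more than 4-fold apart within pig 2 and 9.45% to 14.2% within pigs 1, 4, 5, 6 and 8, but 27.8% of 252 such probes within pig 7. The 2 arrays of pig 7 thus differed more than those of the other pigs. The labels give both to 1 animal, which was not tested here, and if they came from different animals, every ratio of pig 7 below would be a comparison between animals. After group means were removed, these 2 arrays correlated at r = 0.496. The pairs of the other pigs gave 0.520 to 0.716, and arrays of different pigs at most 0.241. Results resting on pigs 2 and 7 are given with and without them. Marker genes of the enterocyte, the absorptive cell of the villus, were measured by 7 of 11 listed genes. Their summed level was 613 to 1256 times the percentile on the Sd arrays and 854 to 1239 times on the onion arrays. Of these genes, 0 were at the floor on all arrays, and saturation of their spots was not examined.

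The 6 genes were measured on almost all arrays. All 25 probes were well above background on 14 of 14 arrays, except the GPX2 probe, which was so on 13 arrays and missed it on the Sd array of pig 8. At the other end, both SOD1 probes were saturated in part, the first on 12 of 14 arrays and the second on 8. Of the CAT probes, the brightest was saturated on 4 arrays (YOd of pigs 1 and 4, Sd and WOd of pig 8), the third brightest on 1 array, and the other 7 on none. The GPX probes were never saturated.

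On the 7 Sd arrays the log2 levels of the glutathione peroxidases differed between pigs to unequal degrees. GPX4 varied least, from 5.36 to 6.06 (mean 5.76 ± 0.27, SD, n = 7), a 1.63-fold range. GPX1 ran from 5.13 to 6.39 (5.71 ± 0.49), a 2.40-fold range, and GPX3 from 2.99 to 4.80 (3.99 ± 0.66), a 3.53-fold range. GPX2 varied most among the 4 genes, from -4.29 to -0.59 (-2.51 ± 1.24), a 13.0-fold range. CAT, by its brightest probe, ran from 4.99 to 6.80 (5.84 ± 0.69), a 3.50-fold range in which the saturated spot of pig 8 may be set too low. Without scaling between arrays the SD of GPX4 was 0.54 and that of GPX1 (0.76) passed that of GPX3 (0.71), but GPX4 had the smallest and GPX2 the largest SD of these 5 genes there too. These are descriptions of 7 animals, with no test.

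**Figure D1:**
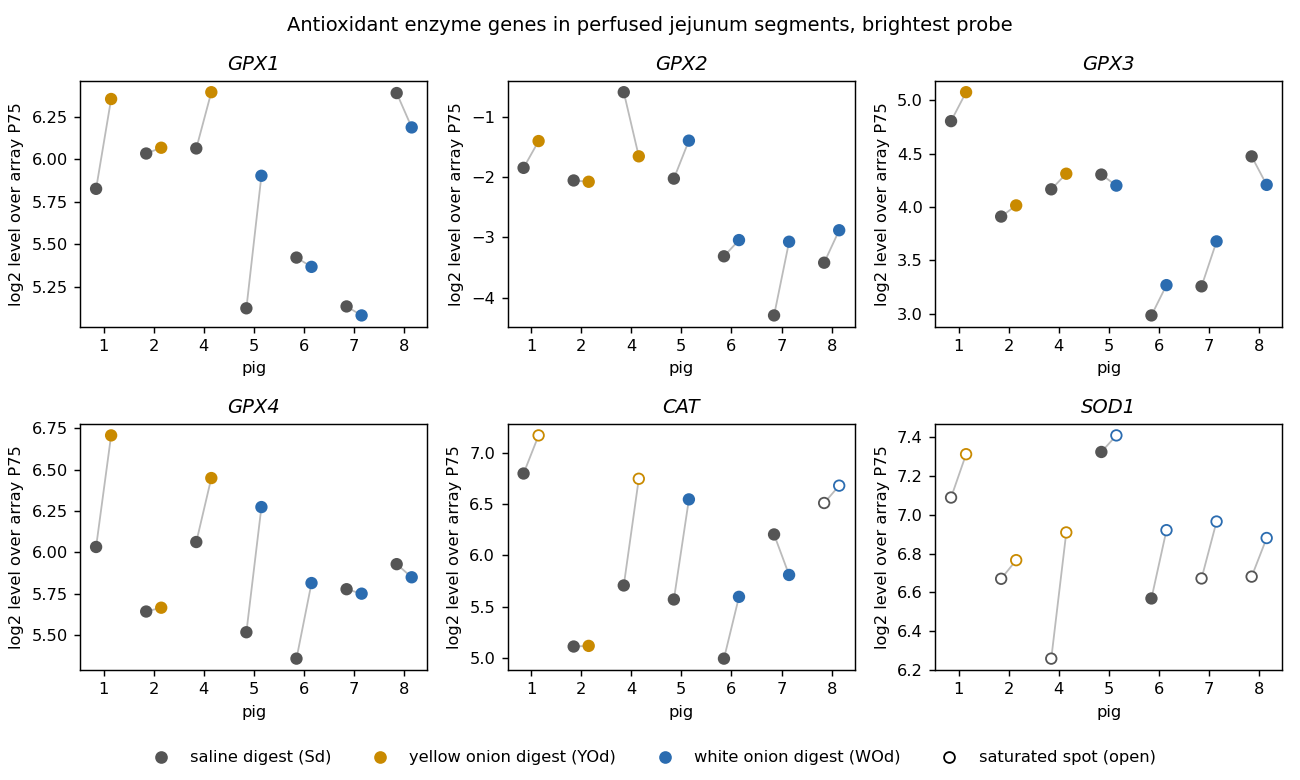
Log2 level over the 75th percentile of the array (y axis, a scale of its own in each panel) of the brightest probe of each gene in each pig (x axis), with grey lines joining the 2 segments of a pig. Grey points are Sd, orange YOd and blue WOd segments, and open points are saturated spots; the CAT lines slope upwards in pigs 1, 4, 5, 6 and 8 (both points of pig 8 are open), lie flat in pig 2 and slope downwards in pig 7, and 12 of 14 SOD1 points are open.

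CAT read higher with YOd in pigs 1 and 4 by each of its probes. The signal of the brightest was saturated on 2 of the 3 YOd arrays, those of pigs 1 and 4. By the brightest probe, the Sd levels were 6.80, 5.11 and 5.71 in pigs 1, 2 and 4, and the YOd levels 7.17, 5.12 and 6.75. By the brightest probe that was never saturated, the Sd levels were 6.30, 4.69 and 5.31 and the YOd levels 7.12, 4.60 and 6.92 in the same pigs. Both readings were higher with YOd in pigs 1 and 4 and nearly level in pig 2, and the levels of the groups overlapped.

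The brightest CAT probe gave log2 ratios of YOd over Sd of 0.37, 0.01 and 1.04 for pigs 1, 2 and 4. Over the 7 probes that were never saturated, the ratio ran from 0.57 to 0.88 for pig 1, from -0.35 to 0.27 for pig 2 and from 1.46 to 1.77 for pig 4. In pigs 1 and 4, the saturated probe thus gave a ratio below each of the other 7. In YOd/Sd the fitted log2 fold change was 0.47 (SE 0.22, 95% interval -0.05 to 0.99, limma adjusted p = 0.386) by the brightest probe, which did not pass both thresholds (unadjusted p under 0.05 and over 1.5-fold). By the brightest probe that was never saturated it was 0.78 (SE 0.31, limma adjusted p = 0.428), which passed both. That probe read 55191 and 62523 units on the YOd arrays of pigs 1 and 4. The saturated spots of the brightest probe read 57272 and 55391 there. The second probe may thus be near the ceiling too, though not flagged, as on the Sd array of pig 8 (53250 units). With every probe fitted, 6 of the 9 CAT probes passed, all upregulated, with log2 fold changes of 0.47 to 0.88 over the 9 probes (median 0.78). The probes share a gene and are no replicates, and 4.96% of all probes passed in this comparison. By limma, 0 of the 9 CAT probes passed in WOd/Sd, in the fit to all pigs and in the test of YOd against WOd, where 1.27%, 0.848% and 5.67% of all probes did. Unadjusted limma p-values alone were under 0.05 for 0, 5 and 0 of the 9. Among all probes they were so for 802 of 25677, 1380 of 25464 and 1818 of 27685. With the brightest probe, the YOd/Sd value was 0.52 without pig 1, 0.71 without pig 2, where it passed, and 0.19 without pig 4. Pig 4 thus weighed most. Its 75th percentile was 795 for Sd and 515 for YOd, so scaling raised every YOd over Sd ratio of that pig. Over 14 alternatives in the processing, with all arrays kept, the CAT value in YOd/Sd ran from 0.16, without scaling, to 0.78. Among them, the slide as a block takes nothing from pig 2, whose 2 arrays lay on different slides.

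With WOd, the CAT response differed between pigs. By the brightest probe the Sd levels were 5.57, 4.99, 6.20 and 6.51 in pigs 5, 6, 7 and 8 and the WOd levels 6.55, 5.60, 5.81 and 6.68, the last pair saturated. CAT was therefore higher with WOd in pigs 5 and 6 and lower in pig 7, and the groups overlapped. The log2 ratios were 0.98, 0.60, -0.40 and, from saturated spots that give no direction, 0.17. By the 7 probes that were never saturated, the median ratios were 0.86, 0.45, -0.48 and 0.02 in the same order, and in pig 8 the ratio was above 0 for 4 of the 7. The fitted log2 fold change of WOd/Sd was 0.34 (SE 0.24, 95% interval -0.22 to 0.90, limma adjusted p = 0.999) by the brightest probe. The brightest probe that was never saturated gave 0.22 (SE 0.20), and the median over the 7 probes was 0.15. Without pig 7 the value of the brightest probe was 0.58 (SE 0.22, limma adjusted p = 0.831), just under 1.5-fold.

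Over the 7 pigs, CAT was higher in the onion segment of 6 by the brightest probe, pig 8 with its saturated spots among them, and of 5 by the brightest probe that was never saturated. The mean log2 ratios were 0.40 (limma adjusted p = 0.652) and 0.46 (limma adjusted p = 0.730), both under 1.5-fold. Without pigs 2 and 7 the value of the brightest probe was 0.63 and passed the thresholds. The slide as a block gave the same estimate, since it takes nothing from these 2 pigs, whose arrays lay on different slides. For CAT, the effect of YOd minus that of WOd was 0.13 (SE 0.37, 95% interval -0.69 to 0.96) by the brightest probe, and -0.11 without pig 7. By the brightest probe that was never saturated it was 0.56 (SE 0.40, 95% interval -0.33 to 1.46, limma adjusted p = 0.930), and the 7 such probes gave 0.52 to 1.43 (median 0.62). Both intervals are too wide to say whether the onions acted alike.

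**Figure D2:**
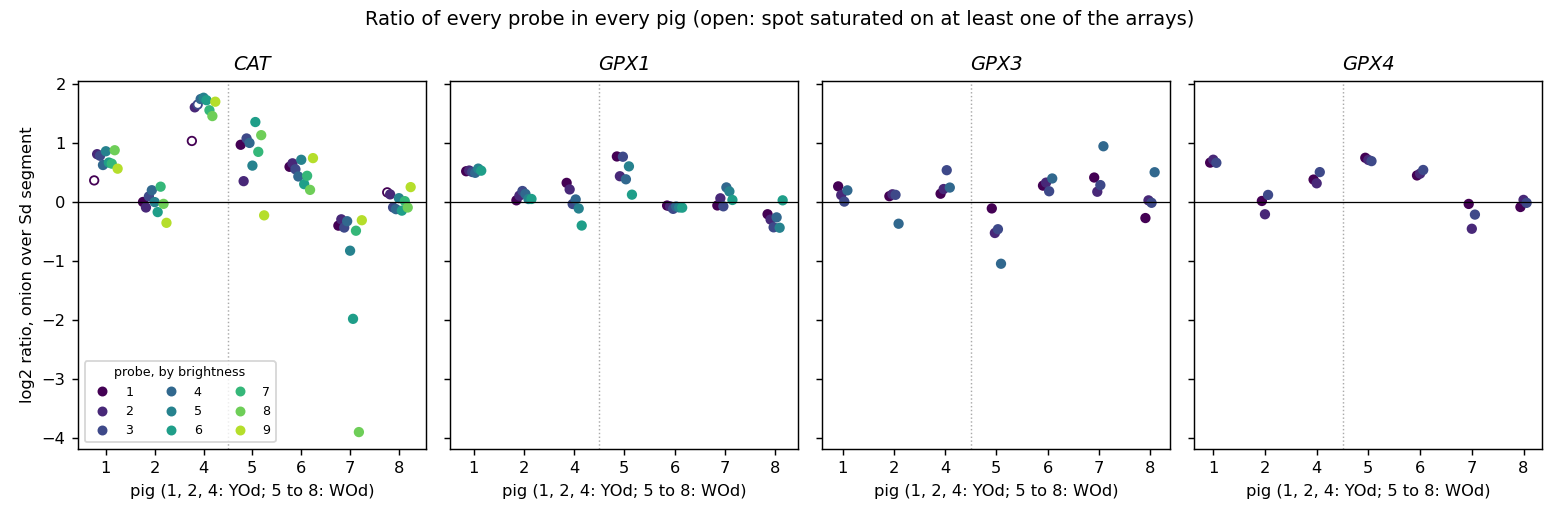
Log2 ratio of the onion over the Sd segment (y axis) for every probe of CAT, GPX1, GPX3 and GPX4 in each pig (x axis, YOd pigs left and WOd pigs right of the dotted line), with colours from dark to light for bright to dim probes and open points where a spot was saturated. In pig 4 the open point of the brightest CAT probe, at 1.04, lies below the others at 1.46 to 1.77, and in pig 7 CAT probes 6 and 8 lie at -1.98 and -3.90 under the rest.

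Of the 9 CAT probes, the sixth and eighth by brightness behaved differently in pig 7, as was seen after the values were known. Their log2 ratios there were -1.98 and -3.90, whereas the other 7 probes gave -0.82 to -0.29. The signal of the eighth probe was set against that of the never saturated second probe of the same array. This difference has no meaning by itself, but can be compared between arrays. It was -5.59 and -5.52 on the Sd and YOd arrays of pig 1, -6.58 and -5.80 on the Sd and WOd arrays of pig 5, and between -2.53 and -1.89 on the arrays of pigs 2, 4, 6 and 8. In pig 7 alone the 2 arrays fell into different ranges, -2.51 for Sd and -6.11 for WOd. The sixth probe gave -1.04 and -2.73 in pig 7. Of the remaining pigs, the median ratio over the 7 never saturated probes was 0.67, 1.71, 0.86 and 0.45 in pigs 1, 4, 5 and 6 and near 0 in pigs 2 (-0.026) and 8 (0.020).

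**Figure D3:**
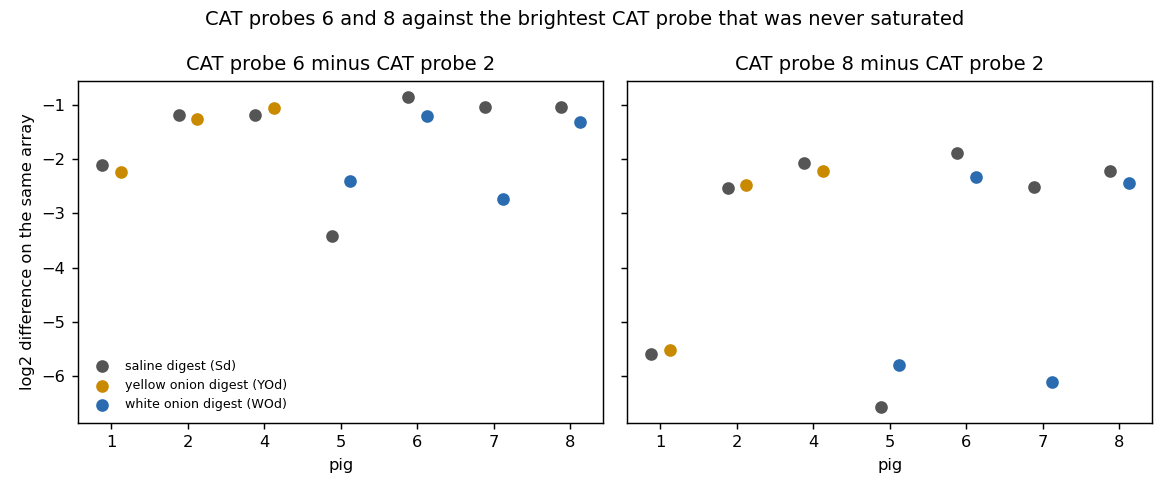
Log2 signal of CAT probe 6 (left) and CAT probe 8 (right) minus that of CAT probe 2 on the same array (y axis) in each pig (x axis), for Sd (grey), YOd (orange) and WOd (blue) segments. The points of a pig lie close together in pigs 1, 2, 4, 6 and 8 and far apart for probe 8 in pig 7, where Sd is at -2.51 and WOd at -6.11.

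GPX2 was the member that passed the thresholds with WOd, although the signal of its only probe was low. The Sd levels were -2.02, -3.31, -4.29 and -3.42 in pigs 5, 6, 7 and 8, and the WOd levels -1.39, -3.04, -3.07 and -2.88. The processed signal behind them, with background already subtracted, was 30.0 to 156 units. The dimmest spot, on the Sd array of pig 7, lay below the median signal of that array, 53.7. The spot on the Sd array of pig 8 was not well above background, so the ratio of that pig is uncertain. GPX2 was higher with WOd in 4 of 4 pigs with pig 8 counted, though the ranges of the groups overlapped. The log2 ratios were 0.63, 0.27, 1.22 and 0.54, and the log2 fold change was 0.67 (SE 0.19, 95% interval 0.21 to 1.12, limma adjusted p = 0.999). Of the 6 member genes tested, 1 was called in WOd/Sd, where 1.19% of 2429 genes were. Without pig 8 the value was 0.71 and passed. The call rested on pig 7, without which the value was 0.48, under 1.5-fold. Background correction with normexp gave 0.24 and the values deposited as processed log2 gave 0.37.

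With YOd, GPX2 went in no common direction. The Sd levels were -1.85, -2.05 and -0.59 in pigs 1, 2 and 4 and the YOd levels -1.40, -2.08 and -1.65. The log2 ratios of 0.44, -0.02 and -1.06 gave a log2 fold change of -0.21 (SE 0.28, 95% interval -0.89 to 0.46), and without pig 4 the value was 0.21. For GPX2, the effect of YOd minus that of WOd was -0.88 (SE 0.37, 95% interval -1.72 to -0.03, limma adjusted p = 0.852). It passed both thresholds, as 3.52% of 2497 genes did, but it passed only with all pigs or without pig 1 or 6, and with pig 4 left out it was -0.45. The YOd and the WOd pigs differed in their Sd segments as well: the Sd level was -1.50 ± 0.79 (SD, n = 3) in the YOd pigs and -3.26 ± 0.93 (SD, n = 4) in the WOd pigs.

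The remaining glutathione peroxidases passed the thresholds in none of the 4 comparisons. In YOd/Sd, 0 of the 6 member genes were called and 0 had an unadjusted limma p under 0.05, where 4.53% of 2449 genes were called. GPX4 had log2 ratios of 0.67, 0.02 and 0.39 in pigs 1, 2 and 4 and of 0.76, 0.46, -0.03 and -0.08 in pigs 5, 6, 7 and 8. It was thus higher in the onion segment of 5 of 7 pigs, pig 2 by little. In pig 4 the signal before scaling was lower with YOd, 45022 units against 53120 for Sd. Its 3 probes were close to each other in pigs 1, 5 and 6, and all 3 were below 0 in pig 7, from -0.45 to -0.03. The log2 fold change of GPX4 was 0.36 (SE 0.17) in YOd/Sd and 0.28 (SE 0.19) in WOd/Sd. Over the 7 pigs it was 0.31 (SE 0.13, 95% interval 0.03 to 0.60, limma adjusted p = 0.652). Each was under 1.5-fold. Over 14 alternatives in the processing, with all arrays kept, the GPX4 value in YOd/Sd ran from 0.052, without scaling, to 0.53. The highest value came with the slide as a block, which takes nothing from pig 2. It was 0.53 with pig 2 left out as well.

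GPX1 was most clearly higher in pig 1 with YOd and in pig 5 with WOd. Its log2 ratios were 0.53, 0.03 and 0.33 in the YOd pigs and 0.78, -0.05, -0.05 and -0.20 in the WOd pigs. All 6 probes were above 0 in pigs 1, 2 and 5 and all 6 below 0 in pig 6, whereas in pig 4 they ran from -0.39 to 0.33. Before scaling, the signal of the brightest probe in pig 4 was lower with YOd, 43329 units against 53145 for Sd. The log2 fold change was 0.30 (SE 0.16, 95% interval -0.08 to 0.68) in YOd/Sd and 0.12 (SE 0.20, 95% interval -0.36 to 0.59) in WOd/Sd, where the value was -0.10 without pig 5.

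GPX3 was nearest to level. Its log2 ratios were 0.27, 0.10 and 0.15 with YOd and -0.10, 0.28, 0.42 and -0.27 with WOd. The log2 fold change was 0.17 (SE 0.14, 95% interval -0.16 to 0.51) in YOd/Sd and 0.08 (SE 0.17, 95% interval -0.33 to 0.49) in WOd/Sd. The dimmest of its 4 probes departed most from the others, at -1.04 in pig 5 and 0.95 in pig 7.

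For SOD1 no fold change can be given. The processed signal of the brighter probe was 46475 to 69641 units, near the ceiling of the scanner, and was saturated on all arrays of the YOd comparison. The second probe was unsaturated on both arrays of pigs 2, 5 and 6. There the log2 levels were 6.45, 7.03 and 5.97 for Sd and 6.44, 7.11 and 6.39 for onion. The log2 ratios were -0.01 with YOd in pig 2 and 0.08 and 0.42 with WOd in pigs 5 and 6. In pigs 2 and 5 the processed signal of this probe was 49388 to 56447 units. Saturated spots of the brightest CAT probe read 55391 to 57272, so these SOD1 spots may be near the ceiling too. In these 3 pigs SOD1 was level or higher, and no test was made.

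Over the 7 pigs, 0 of the 6 member genes were called, where 1.25% of 2400 genes were. Unadjusted limma p-values were under 0.05 for 3 of them, CAT, GPX4 and SOD1, the last on saturated spots, and for 169 of all 2400 genes. Leaving out SOD1, 4 of 5 members were above 0 in YOd/Sd with a median log2 fold change of 0.30, beside 0.14 for all genes tested. In WOd/Sd 5 of 5 were above 0 with a median of 0.28, beside 0.05 for all genes, and over the 7 pigs 5 of 5 with a median of 0.29, beside 0.09. The comparison over 7 pigs contains the arrays of both others. For the difference between the onions, the medians were 0.09 and 0.10. These medians moved with the scaling. In YOd/Sd that of the members was 0.16 with quantile normalization, beside 0.05 for all genes, and -0.012 without scaling, with 2 of 5 members above 0, beside -0.16 for all genes. Without scaling, the members' median was 0.25 with WOd, 0.14 in the 7 pigs together and -0.19 in YOd against WOd, beside 0.012, -0.065 and -0.16 for all genes. After Benjamini-Hochberg adjustment, limma found 0 genes in any of the 4 comparisons, while its unadjusted p-values were under 0.05 for 274, 67, 169 and 103 genes in the order given.

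**Figure D4:**
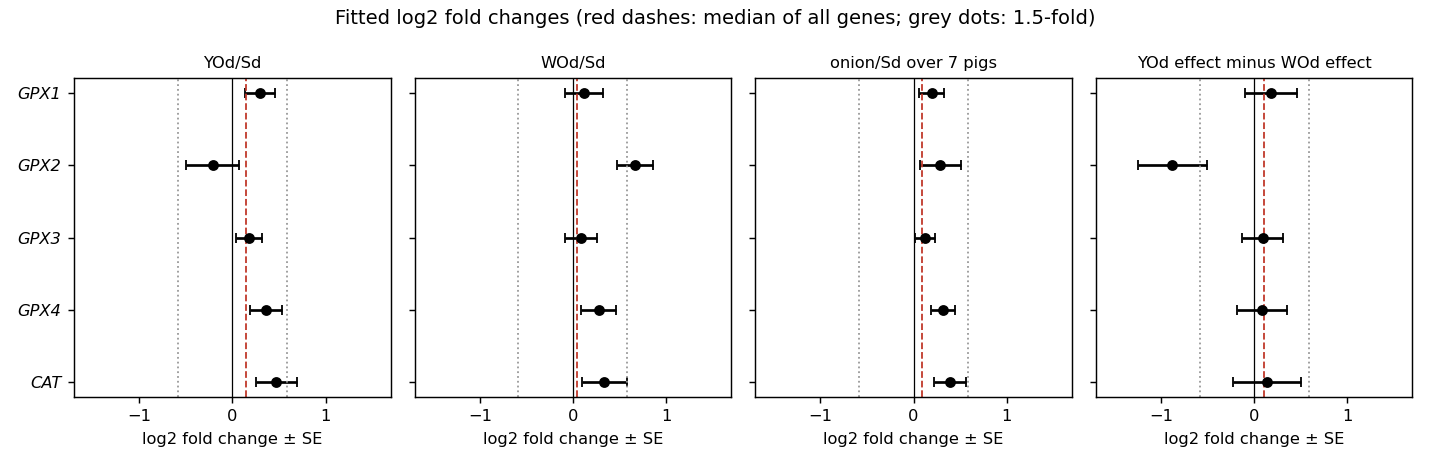
Fitted log2 fold change with its standard error (x axis) of CAT and the GPX genes (y axis) in YOd/Sd (n = 3 pigs), WOd/Sd (n = 4), onion over Sd (n = 7) and the effect of YOd minus that of WOd. Red dashes mark the median of all genes tested and grey dots 1.5-fold up and down; past the grey lines lie GPX2 in WOd/Sd, at 0.67, and GPX2 in the difference, at -0.88.

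The ratios of the members were compared with each other over the 7 pigs in 10 pairs of 5 genes. GPX1 and GPX4 were closest (Pearson's r = 0.86, p = 0.0210; Spearman's rho = 0.79, p = 0.0480; exact permutation tests, two-sided). After Benjamini-Hochberg adjustment over the 10 pairs, the exact permutation p-values were 0.210 and 0.480, so the relation did not pass. Without the 2 pigs farthest from the median of GPX1, r was 0.57. CAT and GPX4 had r = 0.74 (rho = 0.64, exact permutation p = 0.0653 and 0.139, adjusted 0.326 and 0.694), and r = 0.56 when CAT was read from a probe that was never saturated. With that probe, CAT and GPX2 had r = -0.79 (rho = -0.57, exact permutation p = 0.0454 and 0.200, adjusted 0.227 and 0.667), against r = -0.61 with the brightest probe. This relation rested on 2 pigs, without which r was 0.37. Of the 10 pairs, 0 passed the adjustment by either coefficient. The 3 YOd pigs and the 4 WOd pigs are too few to give a value within each onion.

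Over the 14 arrays, the level of each member was most like that of the following genes among 2399, as a description in which the 2 arrays of a pig are not independent. GPX4 was nearest to CCS, the copper chaperone of SOD1 (r = 0.93), POLR2I (0.92) and PTGR1 (0.91). GPX1 was nearest to TIMP2 (0.92), VSIG4, a receptor of tissue macrophages (0.92), and TBXAS1 (0.87). CAT was nearest to PGRMC1 (0.97), PGRMC2 (0.97) and PDK4 (0.93), and by its never saturated probe to PGRMC2, UGP2 and PDK4 (0.96 each). GPX3 was nearest to MMD (0.94), SCG2 (0.94) and ADSS (0.92), and GPX2 to POFUT1 (0.86), CACNA2D1 (0.82) and ZHX3 (0.81). The genes nearest to SOD1, ATP5A1, UBD and RPL27, had r of 0.97, with SOD1 saturated.

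Around these enzymes, 82 further genes of oxidant metabolism were listed, of which 44 had a probe. In YOd/Sd, 2 of 42 tested were upregulated and 0 downregulated, with a median log2 fold change of 0.20 beside 0.14 for all genes. This count is close to the 4.53% called among all genes. They were NQO1, a quinone reductase, at 0.90 (SE 0.25, limma adjusted p = 0.386), and HMOX1, the inducible haem oxygenase, at 0.69 (SE 0.23, limma adjusted p = 0.386). In WOd/Sd 0 of 42, over the 7 pigs 0 of 41 and for the difference 0 of 42 were called, where 1.19%, 1.25% and 3.52% of all genes were. Unadjusted limma p-values were under 0.05 for 0, 6 and 1 of them. Among all genes they were so for 67 of 2429, 169 of 2400 and 103 of 2497. Among the groups, 0 of 6 other peroxidases and dismutase, 0 of 4 genes of the thioredoxin system, 0 of 4 of glutathione synthesis and recycling, 0 of 4 selenium genes and 0 of 3 peroxisome genes were called in YOd/Sd. NQO1 had log2 ratios of 1.34, 0.15 and 1.21 with YOd and 1.49, 1.17, -1.65 and 1.16 with WOd, so that, like CAT, it was nearly level in pig 2 and lower in pig 7. HMOX1 had 0.36, 0.33 and 1.37 with YOd and 0.43, -0.01, -0.04 and 0.01 with WOd.

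Some genes that mark the position along the small intestine also differed between the segments of a pig. PDX1, a transcription factor of the proximal gut, had log2 ratios of 1.78, -0.02 and 2.00 with YOd and 0.93, 1.41, 0.05 and 1.46 with WOd, and was called in YOd/Sd, in WOd/Sd and over the 7 pigs. SLC46A1, the folate transporter of the proximal gut, had 1.60, -0.02, 1.47, 1.82, 1.05, -0.83 and 0.81 in pigs 1, 2, 4, 5, 6, 7 and 8. SLC10A2, the ileal bile acid transporter, had -1.01, 0.00, -2.57, -1.58, -0.51, 1.18 and -0.69 in the same order. In YOd/Sd the other members of these lists did not follow. There the log2 fold change was -0.15 for GATA4 and -0.022 for CYBRD1 among the proximal genes. Among the distal genes it was 0.33 for GUCA2A and 0.23 for FABP6, and SLC10A2 was called at -1.19. The median over the 3 distal genes was 0.23 in YOd/Sd, but -0.40 in WOd/Sd and -0.47 over the 7 pigs. SLC10A2 was thus not the only distal gene below 0 in WOd/Sd and over the 7 pigs. For the 4 proximal genes the median was 0.50, 0.44 and 0.43 in the same order. GATA4 and CYBRD1 were at 0.16 and -0.011 in WOd/Sd and at 0.025 and -0.016 over the 7 pigs, so they did not follow there either. For the 4 proximal genes with a probe, the log2 ratio of the summed level was 0.74 to 1.39 in pigs 1, 4, 5, 6 and 8, -0.09 in pig 2 and -0.62 in pig 7. Such a sum follows its brightest genes and largely repeats SLC46A1. In pig 1 its log2 levels were 4.64 for Sd and 6.24 for YOd, those of PDX1 0.48 and 2.26. The summed level of 7 enterocyte genes moved by -0.11 to 0.61. That of 7 macrophage and neutrophil genes moved by -0.09 to 0.50. For 6 lymphocyte genes it moved by -1.02 to 0.55, for 4 smooth muscle genes by -0.78 to 0.26, for 3 enteroendocrine genes by -0.12 to 1.44, for 3 distal genes by -0.73 to 0.67, for 2 genes of crypt and dividing cells by -1.20 to 0.69 and for 1 goblet gene by -0.66 to 0.70. Of single marker genes in these other lists, CCK, a hormone of enteroendocrine cells (0.92), and S100A9, a calcium-binding protein of neutrophils (0.67), were called in YOd/Sd, and CD3D, a chain of the T cell receptor complex (0.69), for the difference between the onions. Saturation of the marker spots was not examined, and the ratio of a spot at the ceiling follows the scaling of its arrays. In pig 4, where the ratio of the enterocyte sum was highest, the 75th percentile was 795 for Sd and 515 for YOd. The part of scaling in these sums was not tested. The part of cell makeup and of position along the gut in the members' ratios was not tested either.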

How the data were processed

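The members and the gene lists were chosen with earlier results of these data known. The authors deposited scanner files made with Feature Extraction 10.7.3.1, whose processed signal is a linear, background-subtracted intensity, and a table of processed log2 values of 28369 probes. Each of its 14 columns correlated best with its own array (r of 0.986 to 0.997); its normalization is not given in the sources used here, and it served as an alternative. Per the labels, arrays were 1-colour (Cy3), and the notes name RMA without a role.

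Outlier spots were left out, spots of a probe averaged, signals scaled to each array's 75th percentile and raised to a floor, the 40th percentile over all arrays (log2 of -4.43), where lower. Accessions named 6686 of 43603 probes through the Sscrofa11.1 reference, used for names only. The study's own list of selected probes names CAT for a probe that also carries its accession, so it added no probe. Each gene was read from its brightest probe. limma 3.58.1 (R 4.3.3) fitted each comparison with pig as a blocking factor, since the study's analysis was paired; arrays of a pig deviated together (r of 0.496 to 0.716, against at most 0.241 between pigs). Genes had to exceed the floor on as many arrays as the smaller group held and to be measured on every array compared. Called genes had an unadjusted p under 0.05 and changed over 1.5-fold. Segments of 1 pig are a pair, and each pig is 1 replicate. The fits were tested on simulated data. Alternatives covered normalization, background, floor, filter, probe choice, block, slide and each pig left out; saturation, centring on the gene median, leaving out pigs 2 and 7 together, and leaving pig 7 out of the relations were added after seeing the data. Named genes were the members, the called genes of the redox list, and the 3 genes most like each member. The marker genes named singly and the CAT probes of pig 7 were chosen after their values were seen. So were PPARGC1A and the redox genes named beside it. Python 3.11.15 and matplotlib 3.10.9 were used for the other steps. Pig 3 was not analysed here.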

Additional observations from a re-analysis of the deposited data

Results flagged for a closer look

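The YOd effect minus the WOd effect on GPX2 passed the test of the difference itself, at -0.88. Among 4 WOd pigs, the log2 ratio of GPX1 in pig 5, 0.78, stood far above those of the other 3, and so did the log2 level of GPX2 on the WOd array of pig 5, -1.39. In all, 20 groups were searched for such a sample and 2 were found; chance gives about 1 in 20.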

How the results depend on the processing

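Over 20 log2 fold changes of CAT and the GPX genes (SOD1 was left out as saturated), 275 of 290 values under alternatives that kept all 14 arrays or left out pigs 2 and 7 together had the direction reported, and 15 did not. The numbers of called genes below are given in the order YOd/Sd, WOd/Sd, 7 pigs, difference between YOd and WOd effects. Called genes numbered 15, 6, 11 and 31 with normexp, 10, 12, 16 and 38 with the authors' processed values, 325, 87, 77 and 191 with the slide as a block and 1303, 327, 216 and 1570 with every probe fitted. Without the replicate block they were 20, 10, 10 and 5, and 0 member genes were called in WOd/Sd and in the difference; the pairing thus decided both calls of GPX2. The number in YOd/Sd was 64 with quantile normalization, 20 with no filter on dim genes and 64 with a filter on well above background; with no filter it was 17 in WOd/Sd and 47 in the difference. Without scaling it was 16 over the 7 pigs, and without pigs 2 and 7 it was 78 there and 194 in the difference. With 1 pig left out in turn, the numbers ran from 56 to 327, from 44 to 87, from 18 to 49 and from 44 to 153.

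Of the member genes, 1 was called in YOd/Sd (CAT) with the mean of the probes, the slide as a block or probes never saturated. Over the 7 pigs 1 was called (CAT) with the slide as a block or without pigs 2 and 7. These last settings are not separate results, as the slide block takes nothing from the pairs of pigs 2 and 7. In WOd/Sd 0 were called with normexp, the authors' processed values or the slide as a block. In the difference 0 were called with these 3, with no floor, with no filter, with the filter on well above background and without pigs 2 and 7. With 1 pig left out in turn, 0 to 1 were called in YOd/Sd, in WOd/Sd and in the difference, and 0 over the 7 pigs. The cause was not tested.

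Values that changed sign had not passed the thresholds. In the difference they were GPX3 and GPX4, at -0.021 and -0.029 with quantile normalization, -0.060 and -0.034 with normexp, -0.19 and -0.19 without scaling and -0.049 and -0.055 with arrays centred on the gene median. CAT was at -0.14 and GPX1 at -0.10 without scaling, and CAT at -0.0046 with that centring. Without scaling, GPX1 was at -0.012 and GPX3 at -0.14 in YOd/Sd, and GPX3 at -0.028 over the 7 pigs, while the SD of GPX4 over the Sd arrays was 0.54. GPX3 was at -0.029 in WOd/Sd with the slide as a block, the same estimate as without pig 7.

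With 1 pig left out, the sign changed for GPX2 in YOd/Sd (-0.54 to 0.21), GPX1 in WOd/Sd (-0.10 to 0.22), GPX3 in WOd/Sd (-0.029 to 0.20) and, in the difference, CAT (-0.15 to 0.37), GPX3 (-0.026 to 0.20) and GPX4 (-0.072 to 0.25). The correlation of CAT and GPX3 was -0.31 and became 0.053 with CAT from a probe never saturated and 0.11 without pig 7. Without pig 7, those of GPX1 and GPX2 (0.052), GPX1 and GPX3 (0.12), GPX2 and GPX3 (-0.33) and GPX2 and GPX4 (0.14) changed sign too.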

Other observations

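PPARGC1A, a coactivator of mitochondrial and antioxidant genes, had log2 fold changes of -0.49 (SE 0.17, limma adjusted p = 0.386) in YOd/Sd and -0.39 (SE 0.13, limma adjusted p = 0.610) over the 7 pigs, both under 1.5-fold. Other uncalled genes of the redox list with an unadjusted limma p under 0.05 were higher with onion. They were GPX6 (0.52), TXNIP (0.51) and GCLM (0.42) in YOd/Sd. Over the 7 pigs they were GPX6 (0.38), TXNIP (0.38), CCS (0.29), HSD17B4 (0.28) and PRDX5 (0.22).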
